A study of Homo sapiens with 6 samples.

Results

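Expression of 10 transcription factors of the mammary epithelium was followed in SKBR3 breast cancer cells with and without added cortactin: SOX9, SOX4, FOXA1, GATA3, the ETS family members ELF3, EHF and ELF5, the grainyhead factor GRHL2, and the AP-2 factors TFAP2A and TFAP2B. They were picked by gene symbol, with earlier results of these data known, from the 54644 genes of the deposited table. All 10 passed the filter on low counts that left 14433 genes to be tested. SKBR3 is an established human breast adenocarcinoma line that carries amplified ERBB2 (HER2). Control cells were stably infected with lentivirus holding the empty pLVX vector, and CTTN cells with the same vector holding the cDNA of CTTN, the gene of the actin-binding protein cortactin. Both groups went through puromycin selection, so the control cells carry vector and drug resistance too. Each group had 3 libraries of polyadenylated RNA, which the submitters call biological replicates. The sources do not say whether these came from separate infections, so the p-values measure the spread between these libraries.

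In the breast, luminal cells line the ducts and the milk-producing alveoli, and basal cells surround them. FOXA1 opens chromatin for other factors and, with GATA3 and the AP-2 proteins, maintains the luminal programme, whereas ELF5 drives the alveolar branch and ELF3, EHF and GRHL2 keep junction and barrier genes on. SOX9 and SOX4 are HMG-box factors linked to progenitor and tumour-initiating states in the mammary gland, SOX9 together with SLUG and SOX4 downstream of TGF-beta.

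SOX9 and SOX4 fell in CTTN cells and TFAP2B, an AP-2 factor at low level, rose. SOX9 stood at 50.5% of its control mean, SOX4 at 65.9% and TFAP2B at 212%. The fall of SOX4 was not called once transcript length was corrected for (log2 change -0.20 in place of -0.60). The other 7 factors did not pass the test, among them FOXA1 and GATA3. EHF had the most uneven level, from 23.0% of the control mean in CTTN replicate 3 to 93.0% in CTTN replicate 2. The test was edgeR's quasi-likelihood test, in which a gene counted as called at an adjusted p (Benjamini-Hochberg over the 14433 genes) under 0.05. By that rule 3 of 10 factors were called, 1 higher and 2 lower, where 4.2% of all genes tested were called (2.29% higher and 1.91% lower). All 3 also passed the 1.5-fold limit that the study used, as did 3.2% of the genes tested. The counts of the groups did not overlap for 9 of the 10 factors (3 higher and 6 lower in CTTN cells), against 38.6% of the genes tested (19.7% higher and 18.9% lower). The factors were chosen with earlier results of these data known, so an excess over these shares is not a test. The median log2 change was -0.16 over the 10 factors and 0.01 over the genes tested; with a correction for transcript length, described below, these medians were -0.06 and 0.06.

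**Figure D1:**
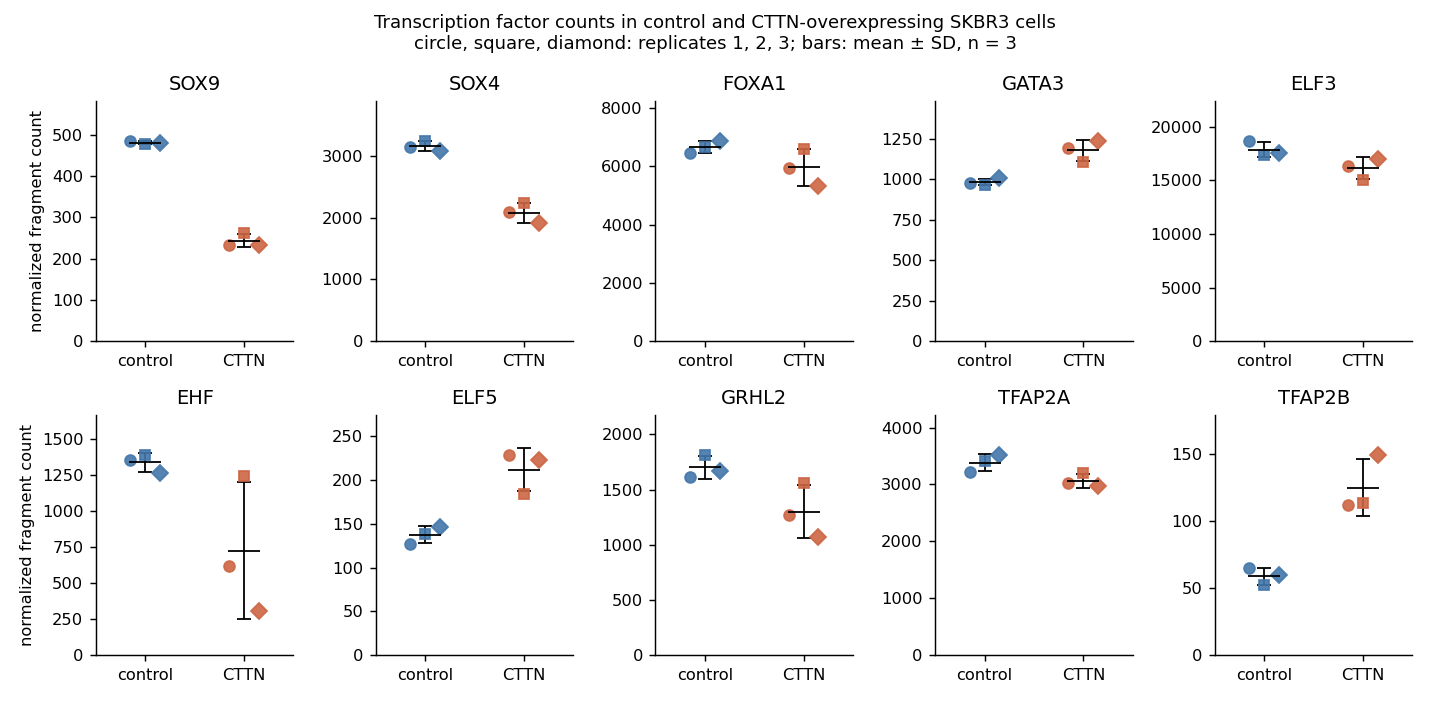
Normalized fragment counts (y axes from 0, a separate scale for each gene) of the 10 transcription factors in 3 control and 3 CTTN libraries; circles, squares and diamonds are replicates 1, 2 and 3, and black bars are mean ± SD. SOX9, SOX4 and TFAP2B separate widely, FOXA1 overlaps, and the CTTN libraries of EHF run from 307 to 1244.

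The libraries themselves were checked first. CTTN had 10912, 11228 and 11265 normalized counts in the controls and 29088, 37144 and 18999 in CTTN replicates 1 to 3, a mean 2.55-fold higher (log2 change 1.35 ± 0.22 SE, adjusted p = 0.0249, edgeR). Without any 1 of the controls or CTTN replicate 1 its adjusted p was 0.123 to 0.154 (edgeR). Each library held 35618400 to 42126200 fragments. Line-identity markers of luminal epithelium summed to 6933 to 10773 FPKM (fragments scaled by transcript length and library size, a level per length), with KRT19 highest over all 6 libraries and KRT8 highest in the controls, and none of the 7 that could be tested was called; 1 was called higher with the length correction described below. CDH1 stayed under 0.25 FPKM in every library and was not tested. Markers of other cell types were low, and 1 of the 10 that could be tested was called. The 10 basal or myoepithelial markers summed to 3.65 to 4.44 FPKM in the controls and 4.83 to 5.34 in the CTTN libraries, with CDH3 listed at 0 and KRT14 under 0.12 FPKM throughout. None of the 5 tested was called, and 2 were called higher with the length correction, which called 11% of all genes tested. The 13 stromal, endothelial and blood markers summed to 8.72 to 9.41 FPKM in the controls and 5.38 to 7.20 in the CTTN libraries, with PTPRC under 0.2 FPKM in every library. Of the 5 tested, COL1A1, the highest over all 6 libraries, did not pass (log2 change -0.16 ± 0.10 SE, adjusted p = 0.297, edgeR) and the cadherin CDH5, the highest in the controls, fell from 4.15 to 1.68 FPKM (log2 change -1.49 ± 0.17 SE, adjusted p = 0.00845, edgeR). The part of such cells in the changes of the 10 factors was not tested. In bulk RNA, fewer cells of a type and less RNA per cell cannot be told apart.

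CTTN replicates 1 and 3 departed from the controls by transcript length, and CTTN replicate 2 did not. Genes with transcripts under 1 kb had a median log2 deviation from the control mean of 0.32, 0.02 and 0.75 in CTTN replicates 1, 2 and 3, and genes over 4 kb had -0.32, -0.01 and -0.62. The controls stayed between -0.05 and 0.06. SOX4 (5852 nucleotides), GRHL2 (5174) and TFAP2B (4244) belong to the longest class, SOX9 (3934) lies just under it, and ELF3 (1866) is the shortest. For 8 of the 10 factors CTTN replicate 2 was the CTTN library nearest to the control mean, as it was for 62.7% of the genes tested. For this reason each change below was also computed with a correction for transcript length and with CTTN replicate 2 as the only CTTN library, both added after the data were seen. For the latter only the size of the change is given, except that the tallies over 16 alternatives count its calls. Its p-values would take the spread of a lone library from the controls, whose median coefficient of variation over the genes tested was 5.44% against 16.3% in the CTTN libraries. The part that length played in any change was not tested beyond these values.

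**Figure D2:**
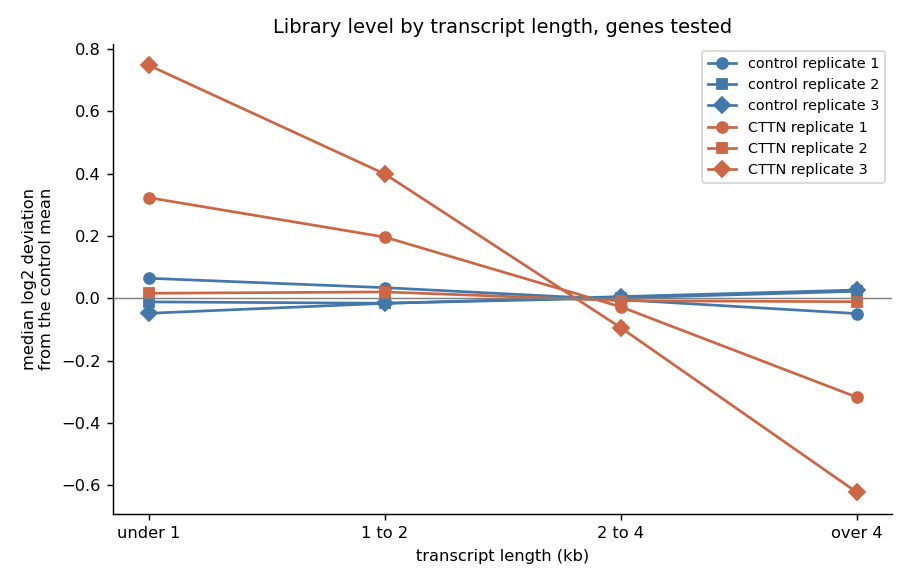
Median log2 deviation from the control mean (y axis) of the genes tested, by class of transcript length in kb (x axis), with a line for each library. CTTN replicates 1 and 3 fall from 0.32 and 0.75 under 1 kb to -0.32 and -0.62 over 4 kb, while CTTN replicate 2 lies among the controls.

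SOX9 (XLOC_021615 in the files; RefSeq places it at chr17:72121020-72126416 in GRCh38.p14) had 485, 478 and 479 normalized counts in the 3 controls and 233, 261 and 234 in the 3 CTTN libraries. The CTTN values all lay well under the controls, whose spread was small (481 ± 3.64, SD, n = 3). The log2 change was -0.99 ± 0.09 SE (adjusted p = 0.00484, edgeR). Per length, SOX9 went from 4.24 ± 0.08 to 2.13 ± 0.12 FPKM. The log2 change was -0.89 in CTTN replicate 2 alone. With the length correction SOX9 was still called (-0.74, adjusted p = 0.0055, edgeR), a fit that called 11% of all genes. It passed in 12 of 16 alternative settings; without any 1 of control replicates 1, 2 or 3 or CTTN replicate 1 the adjusted p lay between 0.0536 and 0.0611 (edgeR). In those 4 fits only 15 to 30 genes of the whole table were called.

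SOX4 (XLOC_042162, chr6:21593751-21598619) had 3157, 3249 and 3087 normalized counts in the controls and 2089, 2242 and 1921 in the CTTN libraries. The groups were far apart against a spread of 81.6 and 161 counts (SD, n = 3 each). Its log2 change was -0.60 ± 0.09 SE (adjusted p = 0.0165, edgeR), and the level moved from 20.7 ± 0.45 to 13.3 ± 1.30 FPKM. In CTTN replicate 2 as the only CTTN library the log2 change was -0.50. With the length correction it shrank to -0.20 and was no longer called (adjusted p = 0.34, edgeR), and in the 4 fits that left out a control or CTTN replicate 1 the adjusted p was 0.102 to 0.121 (edgeR). SOX4 was called in 8 of 16 alternatives and just missed in both limma fits (adjusted p = 0.0566 and 0.0539).

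Most other SOX genes were absent or did not pass. Of 17 further family members with a row of their own, 8 were listed at 0 in every library, among them SOX10 and SOX17, and 5 could be tested. SOX13, the highest of these per length (48.6 FPKM in control and 50.5 in CTTN cells), had a log2 change of 0.04 ± 0.11 SE (adjusted p = 0.788, edgeR). SOX15 alone was called, in the direction opposite to SOX9 and SOX4. It rose from 4.13, 4.36 and 0.96 to 20.7, 27.4 and 27.7 normalized counts (log2 change 3.03 ± 0.42 SE, adjusted p = 0.0156, edgeR), still under 1 FPKM in every library.

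FOXA1 (XLOC_015417, chr14:37589552-37595249) was the only factor whose groups overlapped in normalized counts; per length, those of ELF3 and TFAP2A overlapped too. It had 6453, 6664 and 6873 normalized counts in the controls and 5958, 6601 and 5337 in the CTTN libraries. CTTN replicate 2 lay inside the control range and CTTN replicate 3 was the lowest of the 6. The log2 change of -0.16 ± 0.10 SE did not pass (adjusted p = 0.265, edgeR). With the length correction it was -0.06 (adjusted p = 0.502, edgeR). At 84.2 ± 3.23 FPKM in controls, FOXA1 was expressed above 91.6% of the genes tested.

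GATA3 (XLOC_005041, chr10:8045333-8075198), the zinc finger factor of luminal differentiation, had 979, 966 and 1006 normalized counts in the controls and 1193, 1107 and 1238 in the CTTN libraries. All 3 CTTN values lay over the controls, by a log2 change of 0.26 ± 0.08 SE that did not pass (adjusted p = 0.109, edgeR). Per length the means were 11.2 ± 0.21 and 12.7 ± 0.91 FPKM. FOXA1 and GATA3 were called only when CTTN replicate 2 was left out (log2 change -0.24 and 0.30, adjusted p = 0.0383 and 0.0173, edgeR), a fit in which 47.2% of all genes were called. Of 7 relatives, FOXA2, FOXA3 and the other GATA genes, 3 were tested. GATA2, at 33.1 FPKM in controls the highest, had a log2 change of -0.08 ± 0.07 SE (adjusted p = 0.432, edgeR). GATA5, a factor of heart and gut endoderm, rose from 36.1, 47.1 and 53.6 to 118, 105 and 124 normalized counts (log2 change 1.34 ± 0.19 SE, adjusted p = 0.0157, edgeR).

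The 3 epithelial ETS factors did not move alike. ELF3 (XLOC_002047, chr1:202010587-202017183), an inducer of epithelial differentiation, was the most abundant of the 10 factors at 255 ± 12.8 FPKM in controls, above 97.9% of the genes tested. It had 18692, 17348 and 17579 normalized counts in the controls and 16308, 15002 and 17030 in the CTTN libraries. The groups stood next to each other without overlap (log2 change -0.15 ± 0.09 SE, adjusted p = 0.249, edgeR). ELF3 was the only factor that lay farthest from the controls in CTTN replicate 2, where its log2 change was -0.26. Its row in the table also carries the name of AL691482.3, whose reads cannot be separated from it.

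EHF (XLOC_007472, chr11:34621093-34663288), which acts in epithelial differentiation as ELF3 does, had 1355, 1391 and 1266 normalized counts in the controls. In CTTN replicates 1, 2 and 3 it had 621, 1244 and 307. The CTTN libraries spread 4.05-fold from highest to lowest, a coefficient of variation of 65.9%, larger than that of 98.5% of the genes tested. In the controls the same coefficient was 4.83%. The log2 change over all libraries was -0.89 ± 0.43 SE and did not pass (adjusted p = 0.199, edgeR). It was -0.11 in CTTN replicate 2 alone and -1.53 without that library (adjusted p = 0.00241, edgeR). The order of the 3 CTTN libraries in EHF, with replicate 2 first and replicate 3 last, was also their order in CTTN level (3.34-, 2.61- and 1.71-fold of control) and in nearness to the controls by transcript length. This order was not particular to EHF. Of the genes tested, 62.7% had CTTN replicate 2 nearest to the control mean and 71.5% had CTTN replicate 3 farthest. EHF itself has transcripts of intermediate length (2842 nucleotides), and its change with the length correction was -0.83 (adjusted p = 0.13, edgeR). The study lists EHF among lowered genes shared by its changes in these same libraries and trastuzumab resistance gene sets of 3 patient datasets.

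ELF5 (XLOC_009002, chr11:34478791-34513794), the factor of the milk-producing alveolar lineage, lies 107298 bases from EHF. The neighbours differed in the sign of their change. ELF5 had 127, 139 and 147 normalized counts in the controls and 229, 184 and 223 in the CTTN libraries. All CTTN values were higher (154% of the control mean; log2 change 0.62 ± 0.13 SE), but the adjusted p of 0.0505 (edgeR) fell just short. ELF5 was called in 5 of 16 alternatives, among them the length correction (0.63, adjusted p = 0.0235, edgeR). Leaving out CTTN replicate 2 (0.71, adjusted p = 0.00348, edgeR) or CTTN replicate 3 (0.58, adjusted p = 0.0425, edgeR) also brought it under the threshold. At 1.79 ± 0.25 and 2.66 ± 0.23 FPKM its level was low in both groups. Its milk-gene targets CSN2 and LALBA were listed at 0 in every library, with CSN1S1 and CSN3. Of 11 alveolar and milk genes with a row of their own 3 were tested and none was called. The highest, the prolactin receptor PRLR, had 17.2 FPKM in control and 11.9 in CTTN cells (log2 change -0.52 ± 0.25 SE, adjusted p = 0.195, edgeR). With the length correction the PRLR change was -0.006 (adjusted p = 0.958, edgeR).

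Among the 17 other ETS genes tested, ETV1 alone was called. It fell from 103, 121 and 78.6 to 50.8, 53.7 and 39.9 normalized counts (log2 change -1.06 ± 0.22 SE, adjusted p = 0.0448, edgeR). The prostate-derived factor SPDEF had the highest level of the family list, 136 FPKM in control and 176 in CTTN cells (log2 change 0.33 ± 0.10 SE, adjusted p = 0.103, edgeR). The median log2 change of the 17 was -0.23, and it was 0.00 with the length correction.

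GRHL2 (XLOC_048192, chr8:101492439-101681200) activates E-cadherin and other junction genes in epithelia. It had 1615, 1816 and 1670 normalized counts in the controls and 1271, 1556 and 1074 in the CTTN libraries. CTTN replicate 2 was closest to the controls, at 91.5% of their mean, and replicate 3 farthest at 63.2%. The log2 change of -0.39 ± 0.14 SE did not pass (adjusted p = 0.131, edgeR). With the length correction it was -0.05 (adjusted p = 0.673, edgeR). Of the 16 alternatives, the fit without CTTN replicate 2 alone called GRHL2 (-0.54, adjusted p = 0.00432, edgeR).

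The 2 AP-2 genes had unlike levels and unlike changes. TFAP2A (XLOC_043466, chr6:10396677-10419659), at 41.6 ± 2.53 FPKM in controls, had 3217, 3413 and 3524 normalized counts there and 3022, 3200 and 2973 in the CTTN libraries. These values lay close together, with the highest CTTN library just under the lowest control. Its log2 change was -0.14 ± 0.08 SE (adjusted p = 0.231, edgeR), and no alternative called it.

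TFAP2B (XLOC_042640, chr6:50818355-50847619) had the lowest level of the 10 factors, 0.45 ± 0.13 FPKM in controls and 0.97 ± 0.09 in CTTN cells. It had 65.0, 52.4 and 59.4 normalized counts in the controls and 112, 113 and 150 in the CTTN libraries. Every CTTN library was at least 190% of the control mean, and CTTN replicate 3 was highest. The log2 change was 1.09 ± 0.18 SE (adjusted p = 0.0265, edgeR). It was 0.94 in CTTN replicate 2 alone and 1.39 with the length correction (adjusted p = 0.0148, edgeR). It was called in 9 of 16 alternatives. Leaving out a control or CTTN replicate 1 ended the call (adjusted p = 0.105 to 0.158, edgeR), as did limma on log2(FPKM + 1), where the change was 0.45 (adjusted p = 0.122), and on log2(FPKM + 0.1), where it was 0.99 (adjusted p = 0.149). None of the 7 other grainyhead and AP-2 family genes tested was called; TFAP2C, the most abundant at 90.3 FPKM in control and 89.0 in CTTN cells, had a log2 change of -0.01 ± 0.07 SE (adjusted p = 0.898, edgeR).

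**Figure D3:**
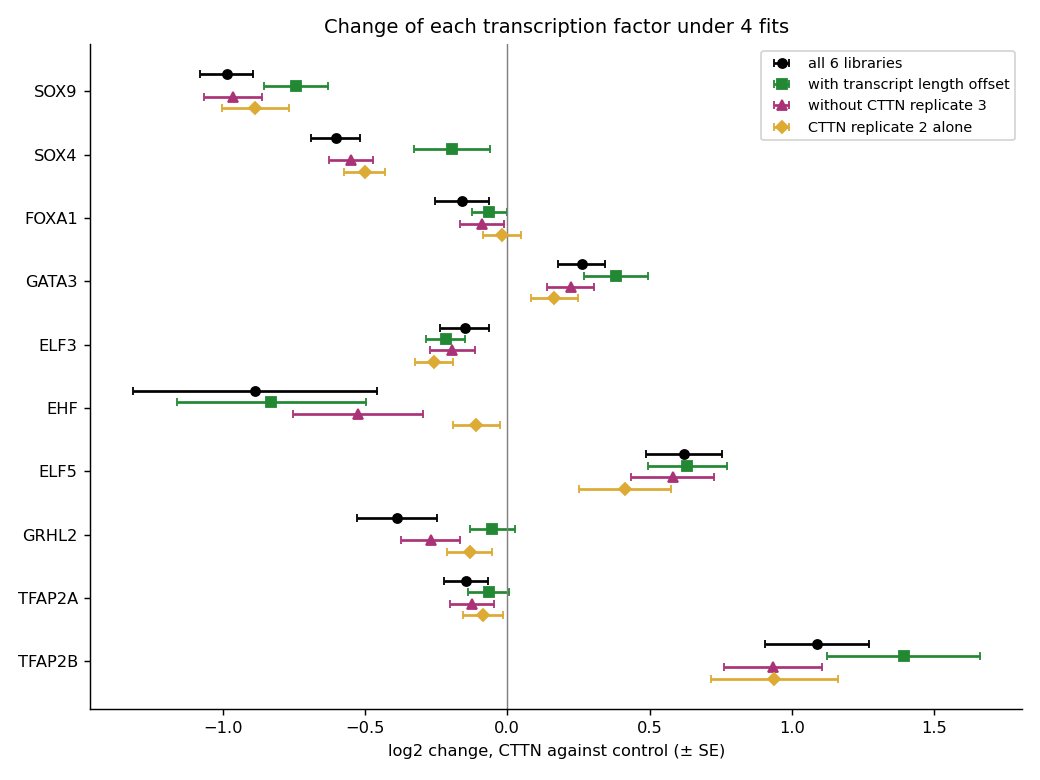
Log2 change of CTTN against control cells (x axis, ± SE) for each of the 10 transcription factors in 4 fits: all 6 libraries, with a correction for transcript length, without CTTN replicate 3, and with CTTN replicate 2 as the only CTTN library, whose bars rest on the spread of the controls. SOX9 stays between -0.99 and -0.74 and TFAP2B between 0.94 and 1.39, SOX4 and GRHL2 move to -0.20 and -0.05 with the length correction, and EHF ranges from -0.89 to -0.11.

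Ranked per length in the controls, the factors ran ELF3, FOXA1, TFAP2A, SOX4, EHF, GATA3, GRHL2, SOX9, ELF5 and TFAP2B, and no neighbouring pair overlapped in its range over the 3 libraries. In CTTN cells GATA3 had a higher mean level than EHF (12.7 and 6.61 FPKM), with overlapping ranges. ELF5 likewise stood higher than SOX9 there (2.66 and 2.13 FPKM), and these ranges did not overlap. The order of the means was otherwise the same in both groups. In CTTN cells the range of GATA3 also overlapped that of SOX4, and the wide range of EHF those of GRHL2 and ELF5.

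The deposited tables also assign fragments to groups of transcripts that share a start site. Of 46 such groups at the 10 genes 31 were tested and none was called (0% of all 35916 tested were called), the lowest adjusted p being 0.327 (edgeR, the only tool run on these tables). At an unadjusted p under 0.05 there were 6, against 10.4% of all groups tested. SOX9 and SOX4 each have a single start site group, so that the gene and the group hold the same counts. GATA3 has 3 in use. The smallest, TSS12031, had 70.4, 57.6 and 71.1 normalized counts in the controls and 150, 130 and 166 in the CTTN libraries (log2 change 1.17 ± 0.24 SE, unadjusted p = 0.00283, adjusted p = 0.369, edgeR). The main group, TSS12032, had 616, 722 and 684 against 691, 821 and 907, where the groups overlap. The remaining group in use, TSS12033, had 293, 186 and 251 against 353, 156 and 165, with the highest and the lowest value both in CTTN libraries.

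EHF was read mostly from TSS17502, with 1190, 1202 and 1143 normalized counts in the controls and 547, 1196 and 273 in the CTTN libraries, so the gap between CTTN libraries sat in its main start site group. FOXA1 had 504 normalized counts at its second group, TSS37440, in CTTN replicate 3, against 1423 to 1847 in the other 5 libraries. At its main group, TSS37439, the same library had 4806, inside the range of the others. TFAP2A divided over 4 groups with at least 10% of its level each, TSS107995, TSS107996, TSS107998 and TSS108000, in all of which CTTN replicate 3 was the lowest of the 6 libraries. At TSS107994, picked after its values were seen, the same library had 972 normalized counts, against 46.3 to 202 in the other 5, so fragments of TFAP2A were divided differently there. ELF3 divided over TSS4968 and TSS4973, while GRHL2 and ELF5 were read almost wholly from TSS119069 and TSS21646. TFAP2B came chiefly from TSS106314, with 61.0, 52.4 and 54.9 normalized counts in the controls and 106, 105 and 144 in the CTTN libraries, and its other group, TSS106315, had 0 to 4.48 and 5.87 to 8.27 and was not tested.

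**Figure D4:**
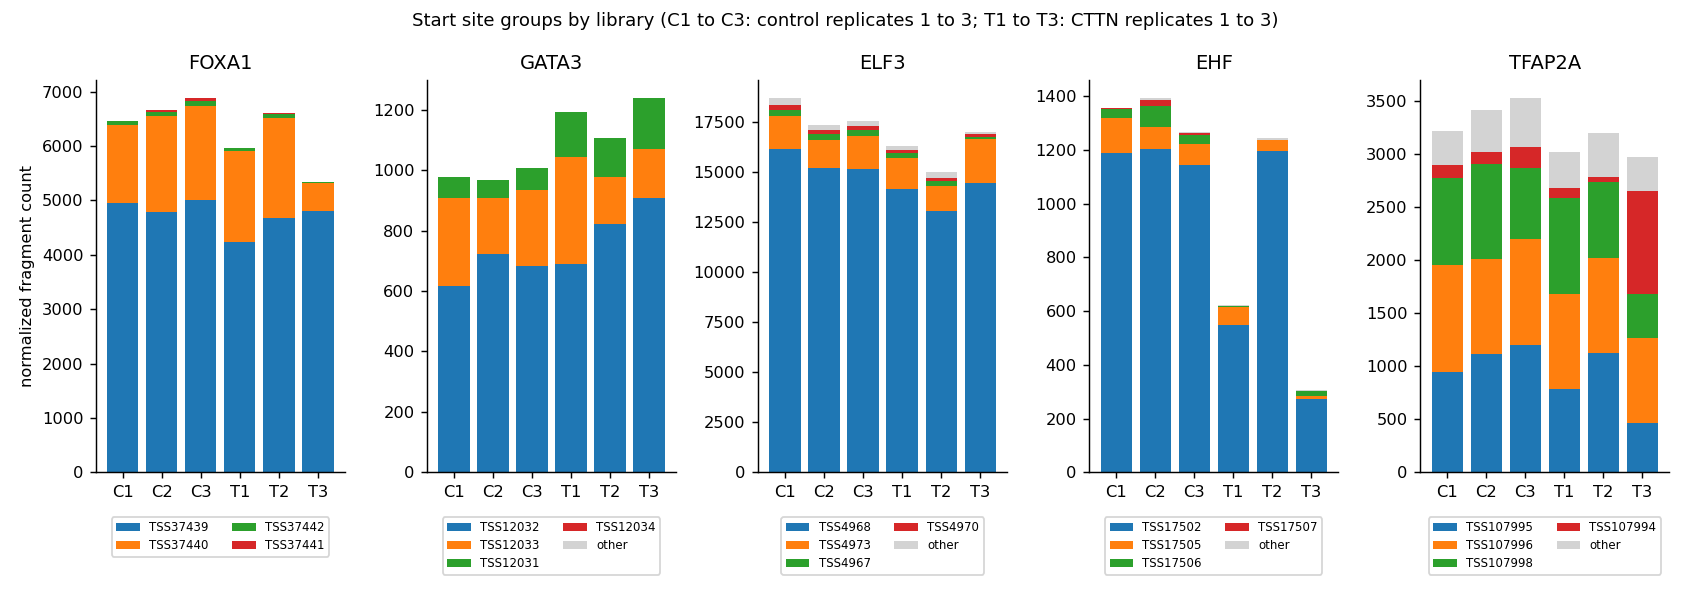
Normalized fragment counts (y axes from 0) at the start site groups of FOXA1, GATA3, ELF3, EHF and TFAP2A in each library, stacked by group; C1 to C3 are the controls, T1 to T3 the CTTN libraries, and grey holds the remaining groups. The EHF bars of T1 and T3 are short in the main group (547 and 273), and the second FOXA1 group shrinks to 504 in T3.

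At the isoform level 43 of 102 transcripts of these genes were tested and none was called (0% of 58275; lowest adjusted p = 0.488, edgeR), with 5 at an unadjusted p under 0.05 against 6.24% of all isoforms. Splits between near-identical isoforms were unstable. The assembly holds 2 SOX9 isoforms of 3935 and 3922 nucleotides, and nearly all SOX9 fragments were given to the longer in 5 libraries and to the shorter in CTTN replicate 3 (0.96 and 233 normalized counts). For GRHL2, 2 assembled models of 5239 and 5232 nucleotides match the transcript ENST00000251808. The shorter had 1502, 1750 and 1579 normalized counts in the controls and 542, 1481 and 320 in the CTTN libraries (log2 change -1.05 ± 0.57 SE, adjusted p = 0.767, edgeR). Summed, both models had 1506, 1754 and 1583 against 1112, 1485 and 327, so that much of the difference in CTTN replicate 1 lay in the split between them. In CTTN replicate 3 most other GRHL2 fragments were given to assembled variants of this transcript that held none in the controls.

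Genes that these factors are known to act on, or to share a lineage with, were counted by list. Of 15 genes of epithelial junction, barrier and secretion linked to GRHL2, ELF3 and EHF, 1 rose and 2 fell, with a median log2 change of 0.13. With the length correction 3 were higher and 1 lower, where 11% of all genes were called. In the fit over all libraries that share was 4.2%. The lipocalin LCN2 fell from 1365, 1179 and 1229 to 699, 639 and 816 normalized counts (log2 change -0.81 ± 0.12 SE, adjusted p = 0.0178, edgeR). LAMB3, a chain of laminin-332, fell by 0.54 on the log2 scale (SE 0.10, adjusted p = 0.0298, edgeR) and was not called with the length correction (adjusted p = 0.159, edgeR). The transglutaminase TGM1 rose (0.62 ± 0.09 SE, adjusted p = 0.0188, edgeR). S100A14, the most abundant over all 6 libraries though not in the controls, had 834 FPKM in control and 1298 in CTTN cells and did not pass (0.67 ± 0.18 SE, adjusted p = 0.0824, edgeR), but did so with the length correction (0.41, adjusted p = 0.0355, edgeR).

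Of 17 luminal genes tied to FOXA1, GATA3 and AP-2, 2 rose and 1 fell, with a median of -0.02. The balance differed between fits, with 2 higher and 5 lower under the length correction or without CTTN replicate 3. These fits called 11% and 8.54% of all genes. The trefoil factor TFF1 rose from 9.29, 10.5 and 5.75 to 29.0, 24.4 and 56.5 normalized counts (log2 change 2.12 ± 0.44 SE, adjusted p = 0.0467, edgeR). FBP1, an enzyme of gluconeogenesis, rose from 28.9, 29.7 and 26.8 to 104, 92.8 and 145 (1.99 ± 0.22 SE, adjusted p = 0.0079, edgeR). Both stayed under 5 FPKM. The carbonic anhydrase CA12 fell from 8621, 8983 and 9256 to 5094, 6007 and 4037 (-0.83 ± 0.14 SE, adjusted p = 0.0274, edgeR). With the length correction the CA12 change was -0.52 (adjusted p = 0.00255, edgeR). CA12 and LCN2 are, like EHF, among the lowered genes that the study found in both these libraries and its trastuzumab resistance gene sets. KRT19, the most abundant luminal gene over all 6 libraries though second to KRT8 in the controls, had 1769 FPKM in control and 2564 in CTTN cells and did not pass (0.49 ± 0.17 SE, adjusted p = 0.122, edgeR).

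Among 25 other epithelial and luminal transcription factors 1 was called, with a median of -0.10. With the length correction, which called 11% of all genes, 2 were higher and 1 lower, and the median was 0.05. BCL11A, a factor of mammary progenitors, fell from 351, 298 and 308 to 193, 199 and 160 normalized counts (log2 change -0.79 ± 0.13 SE, adjusted p = 0.0242, edgeR). XBP1, the highest at 398 FPKM in control and 437 in CTTN cells, did not pass (0.15 ± 0.11 SE, adjusted p = 0.349, edgeR). TP63, the master factor of basal cells and the highest gene of the basal list, stood at 1.80 FPKM in control and 2.32 in CTTN cells (0.39 ± 0.13 SE, adjusted p = 0.123, edgeR). It was called with the length correction (0.64, adjusted p = 0.00511, edgeR). Over all 11 lists 149 genes had a row of their own and 100 of them were tested, of which 11 were called (11%, where 4.2% of all genes tested were). The lists were likewise chosen with earlier results of these data known. None of these 11 genes was called once any single control or CTTN replicate 1 was left out. Those fits called only 15 to 30 genes of the whole table. Without CTTN replicate 2, 48 list genes were called (47.1% of those tested, where 47.2% of all genes were).

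**Figure D5:**
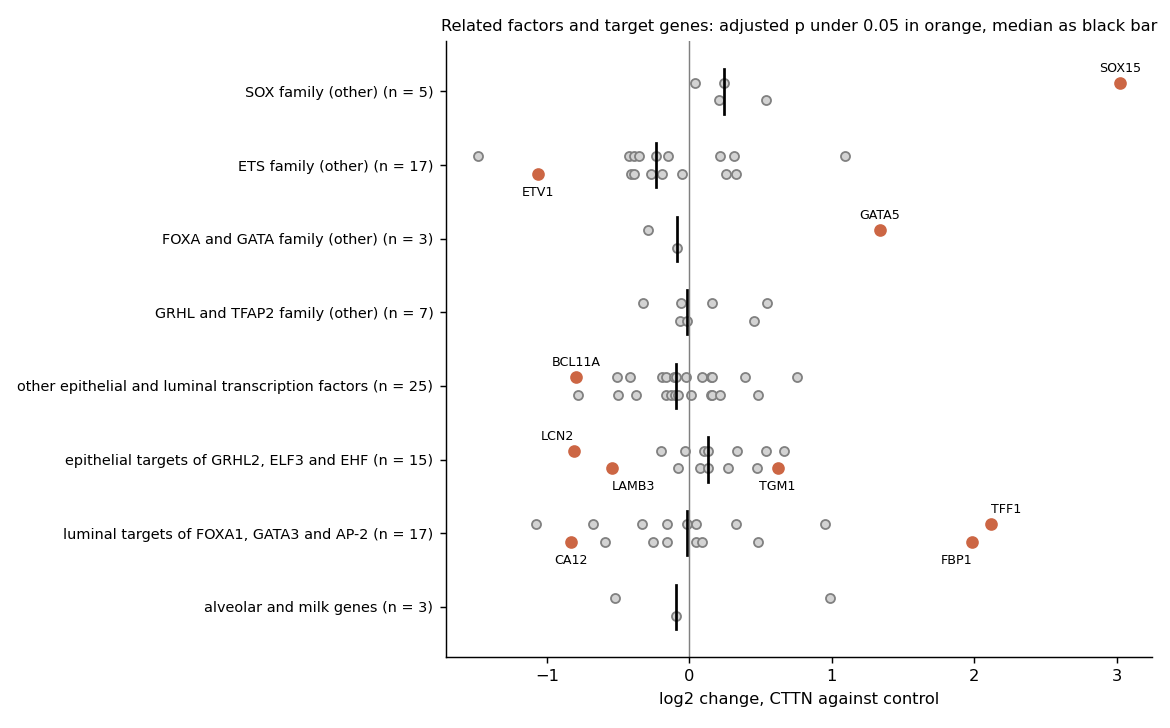
Log2 change of CTTN against control cells (x axis) for each gene tested in 8 lists of related transcription factors and target genes; orange points have an adjusted p under 0.05 (edgeR), grey points do not, black bars are medians and n is the number of genes tested. Medians lie between -0.23 and 0.24, and SOX15 (3.03), TFF1 (2.12) and FBP1 (1.99) are the highest called genes.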

How the data were processed

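RNA of SKBR3 cells was sequenced after polyA capture with a stranded kit. The extraction label also has the word tumors, whereas the series design describes the infected cells themselves; which holds was not settled. Per the labels, the authors used bcl2fastq 2.20.0, Trimmomatic, STAR and Cufflinks with GRCh38, whereas the study's methods name hg19 and another trimmer; the loci in the files are GRCh38. The deposited values are estimated counts of fragments per gene, start site group and isoform, which the authors had already divided by a library scale, and FPKM, which set a level per length. Whether strand was used in counting is not given in the sources used here, so reads of overlapping antisense genes cannot be told apart. Columns for the controls carry labels shifted by 1 against the deposited table of libraries, which was followed for the replicate numbers. No column was left unmapped.

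Estimated counts were rounded to whole numbers and fitted in edgeR 4.0.16 (R 4.3.3; TMM, filterByExpr, quasi-likelihood test, CTTN against control, no block, Benjamini-Hochberg adjustment over all genes tested). The deposited counts are printed as normalized counts, and SD is over 3 libraries a group. SE is the absolute log2 change divided by the square root of the edgeR F statistic, which takes part of its spread from other genes. Alternatives were RLE factors, no factor, counts returned to the unscaled state, DESeq2 1.42.0, limma 3.58.1 on log2(FPKM + 1) and log2(FPKM + 0.1) with a mean FPKM of at least 0.1, no filter, the replicate number as a block, and leaving out each library. The length correction smoothed each library's deviation from the mean of all 6 libraries on log transcript length (spline, 5 degrees of freedom) and used the curve as an offset. It took no account of group, so it also removes a group difference that follows length. The plain edgeR, DESeq2 and limma log2(FPKM + 1) fits were run on simulated data without a trend by transcript length, and the outcome is not given here. The length correction, the replicate block and the fits on fewer libraries were not simulated. The members and lists were chosen with earlier results of these data known. All 10 members are named, and from each list the called genes (at most 4, by size of change) and the gene with the highest mean FPKM; start site groups are named where called or holding at least 10% of their gene. Of the isoforms that reach this share, those of SOX9 and GRHL2 are given as examples chosen after their values were seen, as was a TFAP2A start site group below this share. Whether numbers pair the samples was decided from the correlations of deviations. Gene coordinates are those of RefSeq in GRCh38.p14. A gene that shares its row with another protein-coding gene was left out of the lists. A gene of the lists is not reported here and is in none of their counts.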

Additional observations from a re-analysis of the deposited data

How the results depend on the processing

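All 10 factors kept the direction of their change in each of the 16 alternatives, but no call held throughout: SOX9 was called in 12 of them, TFAP2B in 9 and SOX4 in 8. Against 606 genes called, DESeq2 called 2071, limma 94 with log2(FPKM + 1) and 115 with log2(FPKM + 0.1), the length correction 1591, CTTN replicate 2 alone 2128, and fits without 1 library 15 to 6953 (1244 without CTTN replicate 3, 6953 without CTTN replicate 2). Of the 10 factors, 3 were called in the reported fit, 1 in either limma fit and 0 to 8 without 1 library. Of the genes in the 11 lists, 11 were called in the reported fit, 21 with DESeq2, 4 and 4 with limma, 19 with the length correction, 29 with CTTN replicate 2 alone, and 0 to 48 without 1 library. The log2 change of CTTN was 1.35; it was 1.22 and 1.23 with limma, where it was not called, and 1.10 to 1.57 without 1 library. For single genes 238 values in alternatives stayed on their side of the threshold, 88 lost the call and 10 gained it. On start site groups and isoforms the alternatives run were RLE factors, the replicate block and leaving out each library, and none of these called any. The length correction and the fit with CTTN replicate 2 alone were chosen after seeing the data. The latter, counted among the 16, takes the spread of its single CTTN library from the controls, which vary less than the CTTN libraries, so its p-values may be too small. The cause of these differences was not tested.

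The labels number both groups 1 to 3, but same-numbered libraries did not deviate together (correlations of 0.03, 0.08 and -0.19), so the numbers were not taken as pairs. With the replicate block 109 genes, 1 of the 10 factors (SOX9, adjusted p = 0.0376; SOX4 had 0.0672 and TFAP2B 0.077) and 2 list genes were called, and the CTTN change was 1.30 (edgeR, adjusted p = 0.0563).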
